A study of Mus musculus with 7 samples.

Results

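Expression of 39 mouse genes of DNA repair and the DNA damage checkpoint was examined in hematopoietic stem cells lacking the aryl hydrocarbon receptor (AhR, gene Ahr) and in wild-type stem cells. The genes were listed by function, with earlier results of these data known, and each was represented by the probe set that the platform annotation assigns to it alone, taking the brightest on average where a gene had more than 1. Of the 39, 37 were measured, among 22180 genes with a probe set of their own and 25335 annotated probe sets tested. Trp53 is not analysed here. Fanca was represented only by a probe set it shares with Zfp276, where the log2 difference was 0.33 ± 1.11 (SE).

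The samples were 3 arrays from Ahr knockout mice (Ahr-KO) and 4 arrays from mice with wild-type Ahr (WT), all on the C57BL/6J background and aged 8 weeks. Each array was hybridised with biotin-labelled cDNA made from the total RNA of stem cells that had been isolated by SLAM-family surface markers from lineage-depleted bone marrow. The labels do not say which exons the knockout removes, whether all tissues carry it, or whether each array holds cells of 1 mouse or of several, so p-values measure the spread between arrays, which may be technical. AhR is a ligand-activated transcription factor, and the comparison asks how its loss alters stem cell transcripts.

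DNA damage is met by pathways that differ in the lesion they handle. The kinases ATM and ATR sense broken or stalled DNA and signal through the checkpoint kinases to p53. Breaks across both strands are rejoined by end joining or copied from a sister chromatid by homologous recombination, interstrand crosslinks need the Fanconi anaemia proteins, and damaged or mispaired bases are removed by base excision, nucleotide excision or mismatch repair. Stem cells that rest outside the cell cycle are known to rely more on end joining, and mice lacking several of these genes lose stem cell function with age.

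The promoters of these genes were read first, because AhR binds DNA through a short core, GCGTG, and because several repair genes are known targets of the cell cycle factors of the E2F family. RefSeq windows (build GRCm38.p6) running from 250 bases before to 50 bases after a gene's start were present in the table used for 32 of the 37 measured genes, in 35 windows. On either strand, the core GCGTG occurred in 19 of these windows, or 54.3%, against 32.4% of all 32851 windows and 41.1% of windows of protein-coding genes with a GC content in the same range. The 4 E2F words TTTCCCGC, TTTCGCGC, TTTGCCGC and TTTGGCGC, counted together on either strand, occurred in 6 windows, or 17.1%, against 2.26% of all windows and 3.20% of the protein-coding windows in that GC range. In the 3 windows with both kinds of word, the words did not overlap. A match describes letters in the window and not a bound site.

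The 6 windows with an E2F word are shown because their share exceeded that of other promoters by a larger ratio than the AhR core's. In percentage points, the AhR core exceeded all windows by more, and the E2F words exceeded protein-coding windows in that GC range by slightly more. The stretches below run 5′ to 3′ along each gene, with the word in capitals as it reads on that strand, so GCGGGAAA is TTTCCCGC on the opposite strand. The word starts 209 bases before the start in Bard1, 168 in Brca2, 152 in Chek2, 52 in Fancg and 46 in Xrcc6, and at base 16 after the start in Msh6.
Bard1 (chr1:71103129-71103222, minus strand): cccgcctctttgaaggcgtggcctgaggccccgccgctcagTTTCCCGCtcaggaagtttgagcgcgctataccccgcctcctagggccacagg
Brca2 (chr5:150522408-150522505, plus strand): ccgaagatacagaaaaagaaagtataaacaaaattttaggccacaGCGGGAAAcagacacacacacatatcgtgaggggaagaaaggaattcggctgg
Chek2 (chr5:110839786-110839883, plus strand): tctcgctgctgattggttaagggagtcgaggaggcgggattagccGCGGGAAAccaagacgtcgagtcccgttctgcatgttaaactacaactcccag
Fancg (chr4:43010301-43010398, minus strand): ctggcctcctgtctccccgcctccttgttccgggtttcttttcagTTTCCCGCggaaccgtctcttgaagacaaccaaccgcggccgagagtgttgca
Xrcc6 (chr15:82016278-82016375, plus strand): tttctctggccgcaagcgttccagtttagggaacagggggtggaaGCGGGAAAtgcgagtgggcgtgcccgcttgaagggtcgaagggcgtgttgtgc
Msh6 (chr17:87975020-87975079, plus strand): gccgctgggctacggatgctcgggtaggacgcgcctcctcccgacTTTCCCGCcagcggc

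The cores GCGTG are shown for Palb2 and Fanci, which had the smallest unadjusted p between genotypes among genes with a core before the start. Here the capitals mark the core on either strand, so CACGC is the core on the opposite strand. The cores start 244 and 26 bases before the start in Palb2, and 156 bases before and at base 7 after the start in Fanci.
Palb2 (chr7:122132923-122133196, minus strand): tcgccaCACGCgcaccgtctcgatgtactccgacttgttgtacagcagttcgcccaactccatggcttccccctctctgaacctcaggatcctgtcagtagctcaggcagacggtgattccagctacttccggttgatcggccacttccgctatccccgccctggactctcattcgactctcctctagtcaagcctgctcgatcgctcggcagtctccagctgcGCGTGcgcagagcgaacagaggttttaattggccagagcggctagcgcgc
Fanci (chr7:79392137-79392367, plus strand): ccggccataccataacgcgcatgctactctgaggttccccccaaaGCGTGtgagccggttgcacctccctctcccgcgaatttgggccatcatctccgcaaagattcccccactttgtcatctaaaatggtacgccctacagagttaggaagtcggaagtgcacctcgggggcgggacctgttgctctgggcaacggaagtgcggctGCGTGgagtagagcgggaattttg

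The differences between genotypes of genes with and without these words overlapped, and these counts are descriptions without a test. With the AhR core they ran from -3.20 (Xrcc5, whose core does not lie wholly before the start) to 1.59, and without it from -1.70 to 2.62. Rad50, Nbn, Fancd2, Prkdc and Xpc had no window and are in neither group. Of the 19 genes with the AhR core, 10 had higher mean log2 values in Ahr-KO, with a median difference of 0.02. Of the 13 genes without it, 7 were higher in Ahr-KO and the median was 0.21. Of the 6 genes with an E2F word, 4 were higher in Ahr-KO and the median was 0.64, against 13 of the 26 without one, with a median of 0.01. Among those 6, leaving out 1 array turned the sign of Chek2 (-0.88), Bard1 (0.19) and Fancg (0.10), while Brca2, Xrcc6 and Msh6 kept theirs. The printed Palb2 and Fanci windows illustrate the spread: Palb2 had a log2 difference of 1.59 ± 0.83 (SE) and Fanci one of -2.32 ± 1.36 (SE). Palb2 was at 0.91 without Ahr-KO replicate 1 and at 0.83 with a pseudocount of 16, and Fanci at -1.29 without Ahr-KO replicate 2 and at -0.997 with that pseudocount.

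No repair or checkpoint gene differed between the genotypes at an adjusted p under 0.05. This was the result of limma with Benjamini-Hochberg adjustment over all 25335 probe sets, of which 0 (0%) passed as well. The lowest adjusted p among the 37 genes was 0.963. An unadjusted p under 0.05 was reached by 2 genes, Rad50 with higher and Xrcc5 with lower values in Ahr-KO, against 4.21% of all probe sets. The unmoderated test also gave 0 genes after adjustment, and 1 at an unadjusted p under 0.05. The genotypes were fully separated for 1 gene, Rad50, against 5.74% of all probe sets in either direction and 2.61% with Ahr-KO higher. Mean log2 values were higher in Ahr-KO for 21 genes and lower for 16, and the median difference was 0.16, against -0.03 over all tested probe sets. That median was -0.21 without Ahr-KO replicate 2, and slightly below 0 without WT replicate 2 or WT replicate 3.

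The arrays limited what could be seen. The 95% intervals of the 37 differences had a median half-width of 2.50 log2 units, from 1.36 to 4.31, and 35 of the intervals held 0. For 29 genes the interval held both -1 and 1, so differences of that size were not excluded in either direction. Within a genotype, the residual SD of the 37 genes had a median of 1.65 log2 units, against 0.92 over the 18740 tested probe sets in the same range of mean level. For 31 of the 37 genes the highest array stood at least 10-fold above the lowest. The number of arrays and this spread both limit the precision.

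**Figure D1:**
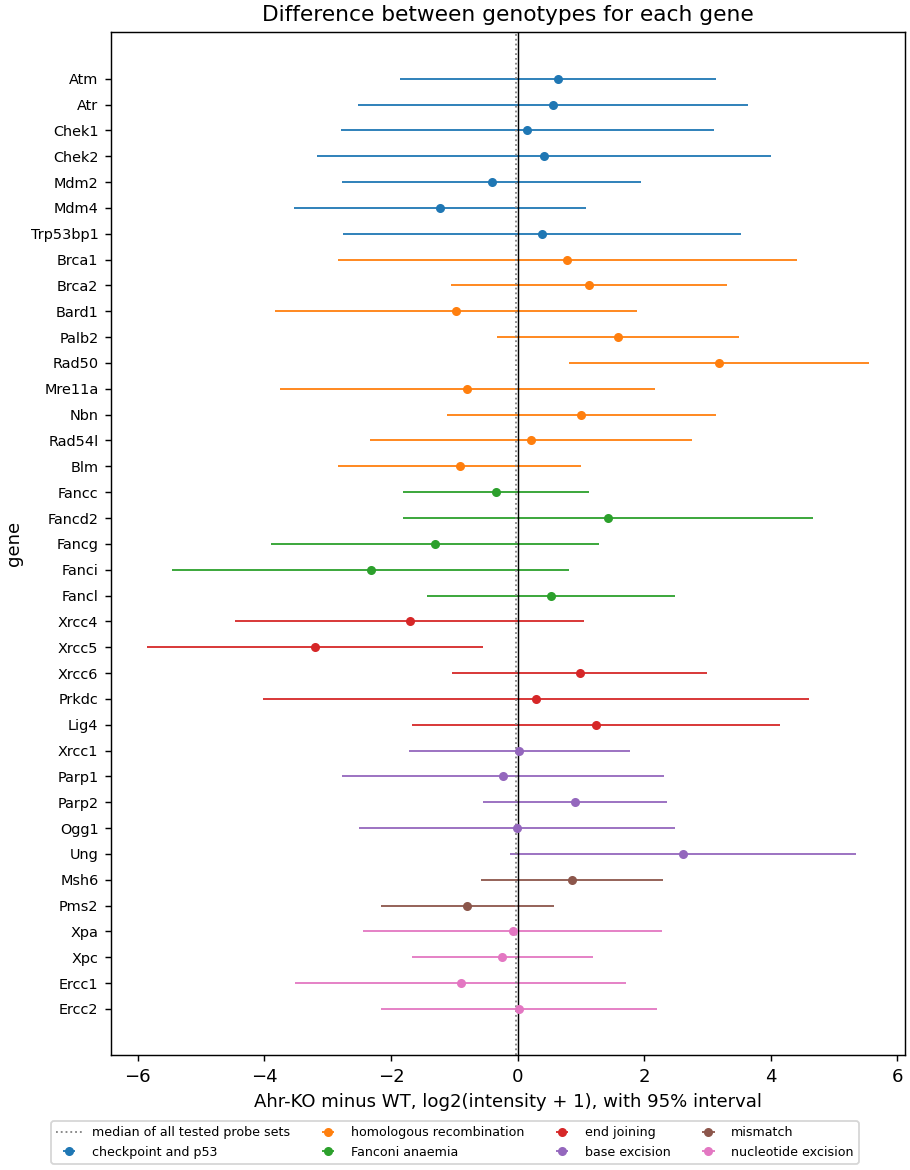
Differences in log2(intensity + 1) between Ahr-KO and WT arrays for the 37 measured genes, coloured by repair pathway, with 95% intervals from limma; the dotted line is the median of all tested probe sets. All intervals except those of Rad50 and Xrcc5 cross 0, and the points lie on both sides of 0 in each pathway.

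A background mark helps to read the intensities, since no detection call accompanies them. Olfactory receptor genes, known for their expression in the nose, gave the mark: the 95th percentile of their 1108 probe sets on each array, 33.8 to 42.8. Only 3 genes, Blm, Parp2 and Pms2, stood above it on all 7 arrays, against 14.4% of all tested probe sets. Another 6 genes (Mdm4, Nbn, Fancl, Xrcc6, Xrcc1 and Xpa) stood above it on 6 arrays, 19 on 2 to 5 arrays, and 9 on 1. None stayed below it throughout, against 33.9% of all tested probe sets. By array, 21, 26 and 16 of the 37 genes exceeded the mark in Ahr-KO, and 18, 12, 15 and 29 in WT. Ahr-KO replicate 2 and WT replicate 4 thus showed the most repair genes and WT replicate 2 the fewest. Over all tested probe sets the shares above the mark were 34.9, 41.9 and 36.2% on the Ahr-KO arrays, against 36.4, 30.7, 34.0 and 44.9% on the WT arrays, with the extremes on the same arrays.

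**Figure D2:**
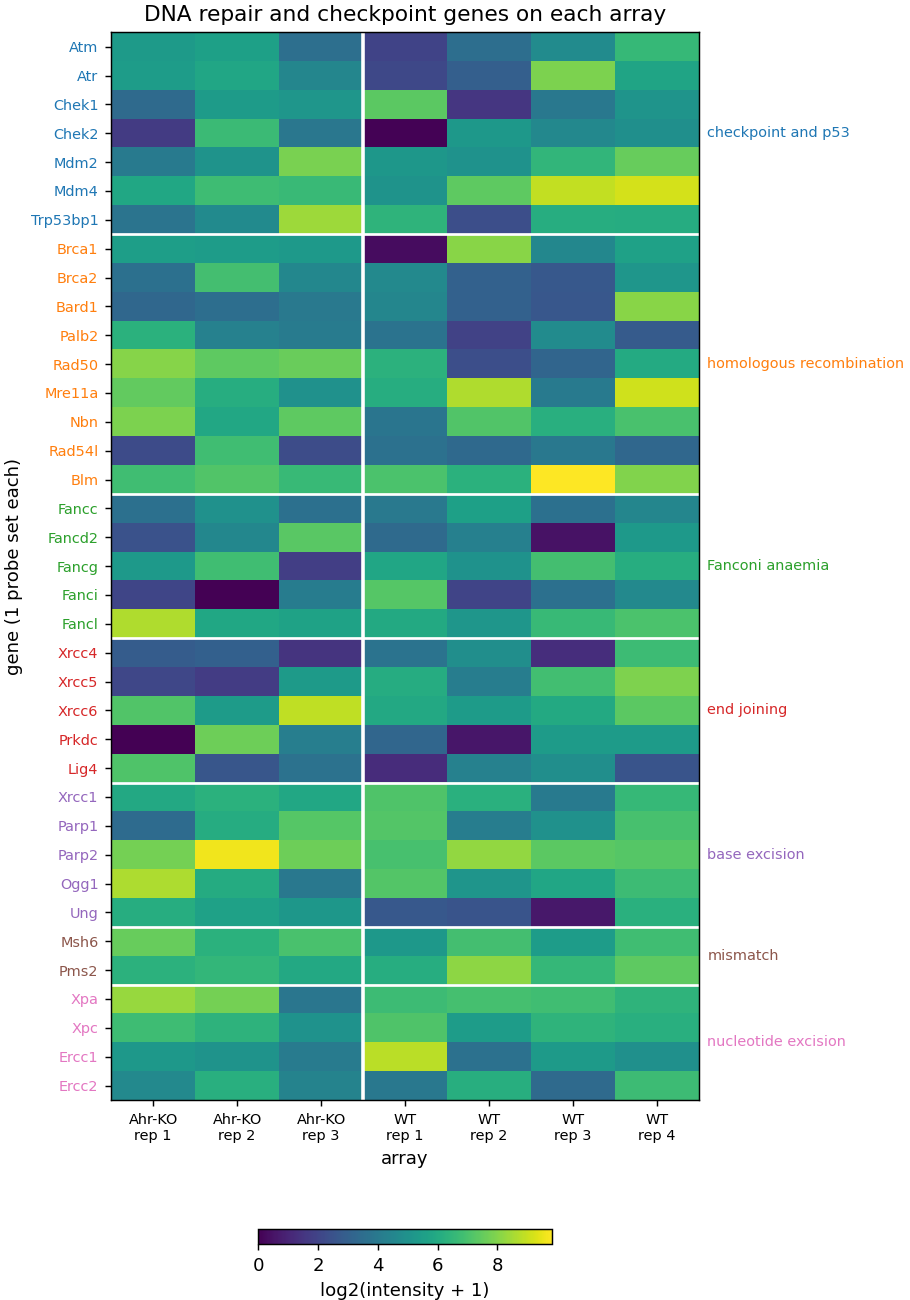
Log2(intensity + 1) of the 37 measured genes (rows, grouped by pathway) on the 3 Ahr-KO and 4 WT arrays (columns); colour shows the level of each probe set. Bright and dark cells are scattered through both genotypes, and single genes such as Brca1 and Chek2 reach from near 0 to above 6 log2 units between arrays.

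The upstream kinases showed no separation of the genotypes. Atm, which encodes the kinase activated by broken DNA ends, stood at 39.8, 47.6 and 11.1 on the Ahr-KO arrays, against 2.92, 10.8, 25.9 and 94.3 on the WT arrays. The WT values enclosed all Ahr-KO values, and the log2 difference was 0.64 ± 1.08 (SE), or -0.11 without WT replicate 1. Atr, the kinase of stalled replication forks, stood at 41.6, 54.7 and 22.04 on the Ahr-KO arrays, against 3.38, 6.82, 239 and 52.4 on the WT arrays. Its WT arrays again lay both below and above the Ahr-KO arrays. The log2 difference was 0.56 ± 1.33 (SE), or -0.29 without WT replicate 1, and the other Atr probe set, above the mark on no array, differed by 0.68 ± 0.66 (SE).

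Downstream of the kinases, values varied as widely within a genotype. Chek1, the effector kinase of ATR, ranged from 9.63 to 40.6 in Ahr-KO, against 1.95 to 164 in WT, with a log2 difference of 0.16 ± 1.27 (SE), or -0.16 with a pseudocount of 16. Chek2, the effector kinase of ATM, ranged from 2.29 to 103 in Ahr-KO, against 0.03 to 36.6 in WT, with a difference of 0.42 ± 1.55 (SE), or -0.88 without Ahr-KO replicate 2. Trp53bp1, which encodes the break-site adaptor 53BP1 that favours end joining, ranged from 12.6 to 331 in Ahr-KO, against 4.10 to 81.9 in WT, with a difference of 0.39 ± 1.36 (SE), or -0.99 without Ahr-KO replicate 3. For each of these 3 genes the values of the genotypes overlapped.

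The p53 inhibitors had lower mean log2 values in Ahr-KO. Mdm4, whose product binds and restrains p53, ranged from 56.7 to 107 in Ahr-KO, against 32.5 to 584 in WT, a log2 difference of -1.22 ± 0.99 (SE), or -0.71 without WT replicate 4. The lowest of its 7 values was that of WT replicate 1. Mdm2, the ubiquitin ligase that degrades p53 and is itself a p53 target, ranged from 15.3 to 229 in Ahr-KO, against 31.3 to 184 in WT. Its log2 difference of -0.41 ± 1.02 (SE) was 0.40 without Ahr-KO replicate 1. Of the 7 measured checkpoint and p53 pathway genes, 5 had higher and 2 lower mean values in Ahr-KO, with a median difference of 0.39.

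Rad50 was the gene with the clearest separation. It encodes the ATPase of the MRN complex (MRE11, RAD50 and NBS1), which holds broken DNA ends together and activates ATM. Its intensity (probe set 17262702) was 259, 165 and 189.8 on the Ahr-KO arrays, against 79.1, 4.15, 8.28 and 63.5 on the WT arrays. All Ahr-KO values lay above all WT values, and the Ahr-KO arrays were above the background mark while 2 of the 4 WT arrays were not. Ahr-KO arrays averaged 205 ± 48.8 (SD, n = 3), against 38.8 ± 38.2 for WT arrays (SD, n = 4). The log2 difference was 3.18 ± 1.02 (SE; limma unadjusted p = 0.0147, adjusted p = 0.963), and 2.47 to 3.79 on leaving out each array in turn. Its size varied with the pseudocount, and with 16 in place of 1 it was 2.31.

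For the partners of Rad50, the values of the genotypes overlapped. Mre11a, the nuclease of the complex, ranged from 30.0 to 177 in Ahr-KO, against 15.1 to 554 in WT, a log2 difference of -0.80 ± 1.28 (SE), or -0.08 without WT replicate 4. Nbn, which encodes the NBS1 subunit that recruits ATM, ranged from 58.2 to 236 in Ahr-KO, against 13.2 to 143 in WT, a difference of 1.01 ± 0.92 (SE), or 0.27 without WT replicate 1. Whether Rad50 and its partners differed in their response was not tested.

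Of the BRCA genes, Brca1 was the steadiest within Ahr-KO and among the most uneven within WT. Brca1, which starts recombination at resected ends, stood at 44.7, 42.7 and 38.97 on the Ahr-KO arrays, against 0.27, 266, 22.5 and 47.8 on the WT arrays. The WT arrays spanned the Ahr-KO values on both sides, the log2 difference was 0.79 ± 1.57 (SE), and it was -0.65 without WT replicate 1 and 0.003 with a pseudocount of 16. Brca2, which loads the recombinase onto single-stranded DNA, stood at 11.2, 117 and 22.6 on the Ahr-KO arrays, against 23.7, 7.24, 5.53 and 35.1 on the WT arrays. Its one high array was Ahr-KO replicate 2, and the log2 difference was 1.13 ± 0.94 (SE), or 0.20 without it. Bard1, the partner of BRCA1 in a ubiquitin ligase, stood at 8.80 to 14.6 on the Ahr-KO arrays, against 5.29 to 270.2 on the WT arrays, where WT replicate 4 alone exceeded the mark. Its difference was -0.98 ± 1.24 (SE), or 0.19 without that array. Palb2, which bridges BRCA1 and BRCA2, ranged from 16.1 to 75.6 in Ahr-KO, against 2.84 to 25.7 in WT, with only Ahr-KO replicate 1 above the mark.

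Among the motor proteins of recombination, the estimate for Rad54l depended on 1 array. It encodes a DNA translocase and stood at 3.72 and 3.81 in Ahr-KO replicates 1 and 3, at 113 in Ahr-KO replicate 2, and at 8.85 to 14.4 in WT. Its log2 difference of 0.21 ± 1.10 (SE) was -1.32 without Ahr-KO replicate 2. Blm, the helicase lost in Bloom syndrome, stood at 111, 141 and 98.1 on the Ahr-KO arrays, against 130.1, 75.7, 906 and 249.6 on the WT arrays. The Ahr-KO values lay inside the WT range, and the difference of -0.91 ± 0.83 (SE) was -0.23 without WT replicate 3. Of the 9 recombination genes, 6 had higher and 3 lower mean values in Ahr-KO, with a median difference of 0.79.

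**Figure D3:**
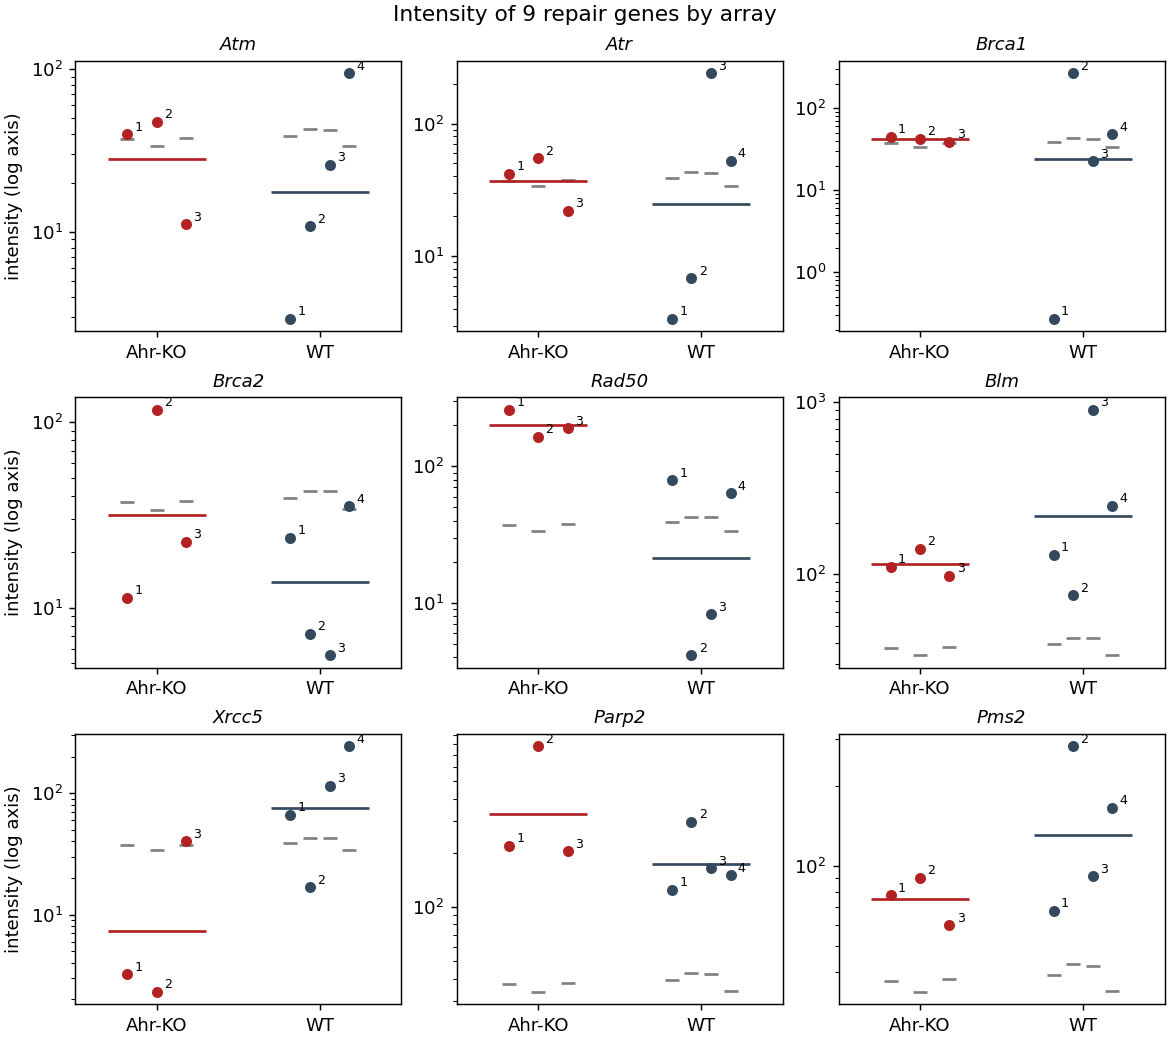
Intensity on each array (log axis; numbers are replicates) of 9 genes in Ahr-KO (red, left) and WT (dark, right), with the mean of log2(intensity + 1) turned back to intensity as a line and the background mark of each array as a grey dash. Rad50 is the gene whose genotypes do not overlap, at 165 to 259 in Ahr-KO against 4.15 to 79.1 in WT.

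The Fanconi anaemia genes were divided in direction, and Fancc, Fanci and Fancd2 exceeded the mark on only 1 or 2 arrays. Fanci and Fancd2 encode the paired proteins that clamp onto DNA when crosslink repair is activated. Fanci was listed at 0 on Ahr-KO replicate 2, stood at 3.11 and 16.6 on the other Ahr-KO arrays, and reached 148 on WT replicate 1 against 3.06 to 23.6 on the other WT arrays. Fancd2 ranged from 4.62 to 157 in Ahr-KO, against 0.40 to 37.7 in WT, and its log2 difference of 1.42 ± 1.40 (SE) was 0.16 without Ahr-KO replicate 3. The paired genes had estimates of opposite sign, and both 95% intervals held 0.

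The core complex that activates them gave no clearer difference. Fancl, the ubiquitin ligase subunit, ranged from 49.5 to 401 in Ahr-KO, against 34.4 to 131 in WT, a log2 difference of 0.53 ± 0.85 (SE), or -0.44 without Ahr-KO replicate 1. Fancg, a scaffold of the core complex, ranged from 2.56 to 112 in Ahr-KO, against 30.8 to 118 in WT, a difference of -1.30 ± 1.12 (SE), or 0.10 without Ahr-KO replicate 3. Fancc, another core subunit, stood at 11.4 to 30.4 on the Ahr-KO arrays, against 11.2 to 46.7 on the WT arrays, above the mark on WT replicate 2 alone, with a difference of -0.33 ± 0.63 (SE), or 0.05 without that array. Of the 5 genes, 2 had higher and 3 lower mean values in Ahr-KO, with a median of -0.33.

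In end joining, Xrcc5 had a difference close in size to that of Rad50 and in the opposite direction. It encodes Ku80, which with Ku70 caps broken ends. Its intensity (probe set 17214053) was 3.23, 2.32 and 40.1 on the Ahr-KO arrays, against 66.7, 16.8, 115 and 243.8 on the WT arrays. Ahr-KO replicate 3 lay above WT replicate 2, so the genotypes overlapped at that point, while the other Ahr-KO arrays lay below all WT arrays and below the background mark. Ahr-KO arrays averaged 15.2 ± 21.5 (SD, n = 3), against 111 ± 97.5 for WT arrays (SD, n = 4). The log2 difference was -3.20 ± 1.15 (SE; limma unadjusted p = 0.0238, adjusted p = 0.963), -4.35 to -2.54 on leaving out each array in turn, and -1.86 with a pseudocount of 16.

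Xrcc6, which encodes Ku70, had an estimate of the other sign, and the difference between the Ku genes was not tested. It ranged from 41.4 to 467 in Ahr-KO, against 40.7 to 164 in WT, a log2 difference of 0.98 ± 0.87 (SE), or 0.12 without Ahr-KO replicate 3. Prkdc, the kinase recruited by Ku, was among the most uneven genes, at 0.01, 199.9 and 17.4 on the Ahr-KO arrays, against 0.51 to 41.1 on the WT arrays. Its difference of 0.30 ± 1.86 (SE) had the widest interval of all 37 genes, -4.01 to 4.60. Lig4, the ligase of the last step, exceeded the mark on Ahr-KO replicate 1 alone and differed by 1.24 ± 1.26 (SE), or -0.08 without that array. Xrcc4, its scaffold, exceeded the mark on WT replicate 4 alone and differed by -1.70 ± 1.19 (SE), or -0.84 without that array. Of the 5 end joining genes, 3 had higher and 2 lower mean values in Ahr-KO, with a median of 0.30.

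Among the single-strand break and base excision genes, Parp2 was measured above the mark on every array. Parp2, a poly(ADP-ribose) polymerase that marks nicks, stood at 219, 783 and 203 on the Ahr-KO arrays, against 124, 296, 164 and 150.0 on the WT arrays. The Ahr-KO arrays were at the upper end but WT replicate 2 lay among them, and the log2 difference was 0.91 ± 0.63 (SE), with an adjusted p of 0.963 by limma, and 0.28 without Ahr-KO replicate 2. Parp1, the main enzyme of the family, ranged from 9.88 to 151 in Ahr-KO, against 16.9 to 144 in WT, a difference of -0.23 ± 1.10 (SE), or 0.84 without Ahr-KO replicate 1. Xrcc1, the scaffold they recruit, ranged from 58.3 to 77.2 in Ahr-KO, against 15.5 to 139.7 in WT, a difference of 0.03 ± 0.76 (SE), or -0.62 without WT replicate 3.

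The glycosylases that open base excision repair differed in their estimates. Ung, which removes uracil from DNA, ranged from 35.8 to 68.3 in Ahr-KO, and in WT from 0.55 to 5.56 on replicates 1 to 3 with 74.0 on replicate 4. WT replicate 4 was therefore the highest of all 7 arrays, above every Ahr-KO array. The log2 difference was 2.62 ± 1.18 (SE; limma unadjusted p = 0.0579, adjusted p = 0.963), or 1.19 with a pseudocount of 16. Ogg1, which removes oxidised guanine, ranged from 14.4 to 392 in Ahr-KO, against 33.5 to 147 in WT, with a difference of -0.01 ± 1.08 (SE) whose sign varied with the setting. Of the 5 genes of this pathway, 3 had higher and 2 lower mean values in Ahr-KO, with a median of 0.03.

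Both mismatch repair genes had standard errors among the smallest of the 37. Pms2, the endonuclease subunit, stood at 77.6, 90.4 and 59.9 on the Ahr-KO arrays, against 67.8, 281, 91.5 and 165 on the WT arrays. WT replicate 1 lay within the Ahr-KO range and the other WT arrays above it, and the log2 difference was -0.79 ± 0.59 (SE), with an adjusted p of 0.963 by limma, and -0.42 without WT replicate 2. Msh6, which recognises mispaired bases, ranged from 76.7 to 187 in Ahr-KO, against 36.8 to 119 in WT, a difference of 0.86 ± 0.62 (SE) that stayed between 0.56 and 1.20 on leaving out each array in turn. These estimates had opposite signs and both intervals held 0.

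In nucleotide excision repair, which removes bulky adducts such as those formed by polycyclic aromatic hydrocarbons, estimates lay near 0 for 3 of 4 genes. Xpc, which detects the distortion, ranged from 31.4 to 109 in Ahr-KO, against 42.5 to 139 in WT, a log2 difference of -0.24 ± 0.62 (SE), or 0.28 without Ahr-KO replicate 3. Xpa, which verifies the lesion, ranged from 13.4 to 314 in Ahr-KO, against 83.0 to 121 in WT, a difference of -0.08 ± 1.02 (SE), or 1.32 without Ahr-KO replicate 3. Ercc2, a helicase of the TFIIH complex, ranged from 19.9 to 73.1 in Ahr-KO, against 9.41 to 104 in WT, and differed by 0.02 ± 0.94 (SE), or -0.54 without Ahr-KO replicate 2. Ercc1, part of the nuclease that cuts beside the lesion, ranged from 15.9 to 36.9 in Ahr-KO and from 11.8 to 39.4 on WT replicates 2 to 4, with 447 on WT replicate 1. Its difference of -0.90 ± 1.13 (SE) was 0.14 without that array. The median of the 4 genes was -0.16.

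The sign of an estimate was often set by 1 array. Across the 16 other settings of the fit, 16 of the 37 genes kept their sign wherever they were tested, 9 with higher values in Ahr-KO (Brca2, Palb2, Rad50, Nbn, Fancd2, Xrcc6, Parp2, Ung and Msh6) and 7 with lower values (Mdm4, Mre11a, Blm, Fanci, Xrcc4, Xrcc5 and Pms2). The sign of the other 21 turned under at least 1 setting. A kept sign is not a call, since the adjusted p of each exceeded 0.05.

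The level of the repair genes moved between arrays of the same genotype. Their mean log2 level was 5.21, 5.62 and 5.22 on the Ahr-KO arrays, against 4.98, 4.78, 5.05 and 6.21 on the WT arrays. Over all tested probe sets it was 4.70, 5.07 and 4.83 on the Ahr-KO arrays, against 4.90, 4.63, 4.85 and 5.17 on the WT arrays. Both were highest on WT replicate 4 and lowest on WT replicate 2. WT replicate 4 held the highest value for 8 of the 37 genes and the lowest for 0, while WT replicates 1, 2 and 3 held the lowest for 9, 8 and 9. A list of 28 measured cell cycle genes had mean log2 levels of 6.27, 7.69 and 6.69 on the Ahr-KO arrays, against 7.17, 6.14, 6.98 and 7.11 on the WT arrays. It was highest on Ahr-KO replicate 2 and lowest on WT replicate 2, where the repair genes were second highest and lowest. Whether cycling cells contribute to these shifts was not tested, and in bulk RNA fewer cells of a type and less RNA per cell cannot be told apart.

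**Figure D4:**
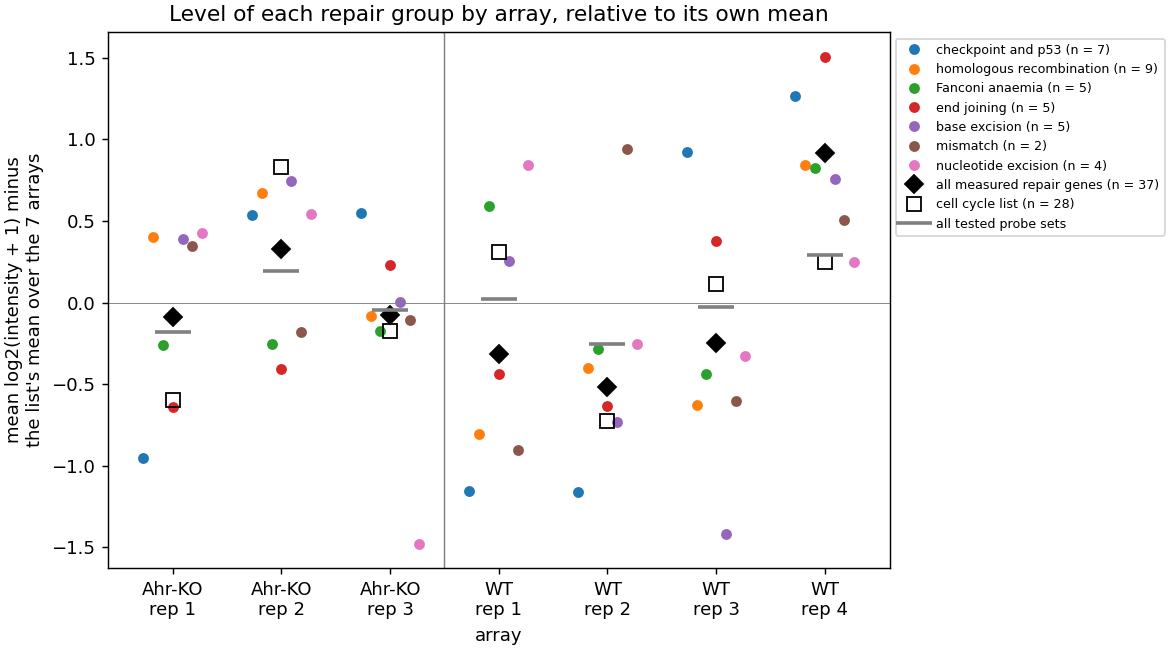
Mean log2(intensity + 1) of each repair pathway on each array, shown as the difference from that pathway's own mean over the 7 arrays; diamonds are all 37 repair genes, open squares the cell cycle list and grey dashes all tested probe sets. WT replicate 4 lies 0.92 above and WT replicate 2 0.52 below the repair genes' mean, and the Ahr-KO arrays lie between.

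Other genes of the same pathways were divided in direction as well. Of 79 further DNA repair genes, 69 were measured, 35 with higher and 34 with lower mean values in Ahr-KO, with a median difference of 0.02, and 0 passed the adjusted threshold by limma. At an unadjusted p under 0.05 there were 3 of the 69, where the share over all probe sets was 4.21%, and 1 had values that did not overlap, where that share was 5.74%. Rad1, of the checkpoint clamp loaded at stalled forks, stood at 37.1, 95.4 and 258 on the Ahr-KO arrays, against 27.8, 26.2, 8.81 and 20.6 on the WT arrays, giving a log2 difference of 2.29 ± 0.74 (SE). It was the gene of that list without overlap, though only 2 arrays, both Ahr-KO, lay above the mark. With a pseudocount of 16 its difference was 1.71. Its other probe set differed by 1.41 ± 0.64 (SE), and there the genotypes overlapped, with Ahr-KO replicate 1 at 13.3 and WT replicate 3 at 19.8. Mbd4, a glycosylase acting at methylated sites, differed by -1.78 ± 0.67 (SE) and Polh, the polymerase that copies past ultraviolet lesions, by 2.95 ± 1.26 (SE). With a pseudocount of 16 these were -0.98 and 1.47, and Mbd4 lay above the mark on 1 array. The adjusted p was 0.963 for each by limma.

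Known p53 target genes also divided evenly. Of 20 listed, 18 were measured, 9 with higher and 9 with lower mean values in Ahr-KO, with a median of 0.04 and 0 past the adjusted threshold by limma. At an unadjusted p under 0.05 there were 2 of the 18, and 3 had values that did not overlap, where the shares over all probe sets were 4.21% and 5.74%. Apaf1, the core of the apoptosome, stood at 3.88, 13.2 and 23.6 on the Ahr-KO arrays, against 99.8, 40.0, 38.8 and 67.5 on the WT arrays, giving a log2 difference of -2.28 ± 0.67 (SE; limma adjusted p = 0.963). No Ahr-KO value and only 2 of the 4 WT values of Apaf1 lay above the background mark, and with a pseudocount of 16 the difference was -1.38. Trp53inp1, a p53-induced promoter of cell death, ranged from 8.51 to 11.3 in Ahr-KO, against 14.4 to 46.5 in WT, and lay above the mark on 1 array. Its log2 difference was -1.24 ± 0.51 (SE), or -0.67 with a pseudocount of 16. Plk2, a kinase above the mark on all arrays, stood at 149, 90.1 and 79.1 on the Ahr-KO arrays, against 74.1, 77.5, 75.0 and 71.3 on the WT arrays, a difference of 0.45 ± 0.43 (SE), or 0.18 without Ahr-KO replicate 1.

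Checks of the samples bear on all of these values. Ahr (probe set 17280729) stood at 26.4 to 137 on the Ahr-KO arrays, against 14.9 to 57.9 on the WT arrays, giving a log2 difference of 0.84 ± 0.73 (SE; limma adjusted p = 0.963). Leaving out Ahr-KO replicate 2 gave 0.13, and the probe set exceeded the mark on 2 of the 7 arrays. The part of the gene that the probe set covers is not known here, so this does not check the labels. Of 10 listed stem cell markers 9 were measured, with summed intensities of 2833 to 3564 in Ahr-KO and 3368 to 7694 in WT. The highest sum was that of WT replicate 3, where Gata2 alone stood at 3932, against 233 to 749 on the other WT arrays. Kit, Hlf, Gata2, Cd34 and Meis1 stood above the mark on all arrays. Of the 9, 3 had higher and 6 lower mean log2 values in Ahr-KO, with a median difference of -0.65, and Mecom was listed at 0 on WT replicate 2. Slamf1, a SLAM marker, stood at 57.4, 78.0 and 236 on the Ahr-KO arrays, against 4.56, 23.3, 7.81 and 73.3 on the WT arrays. Its log2 difference was 2.58 ± 0.97 (SE), with limma unadjusted p = 0.0288 and adjusted p = 0.963. It exceeded the mark on 1 of the 4 WT arrays, and with a pseudocount of 16 the difference was 1.73. All 12 granulocyte and monocyte markers had higher mean log2 values in Ahr-KO, with summed intensities of 8115 to 20969 in Ahr-KO and 2570 to 21709 in WT, lowest on WT replicate 1. The median of that list was 1.07, and 0.18 without WT replicate 1, where 4 of the 12 were lower in Ahr-KO (Camp at -1.03, Ngp at -0.61, S100a9 at -0.49 and S100a8 at -0.14). Fcgr3 was the marker of that list without overlap, at 55.4 to 139.7 in Ahr-KO, against 17.3 to 54.2 in WT. Its log2 difference was 1.80 ± 0.58 (SE), with limma unadjusted p = 0.0151 and adjusted p = 0.963. Fcgr3 also exceeded the mark on 1 of the 4 WT arrays, and with a pseudocount of 16 the difference was 1.39. The mast cell and basophil markers (5 measured) summed to 599 to 2592 in Ahr-KO and 99.6 to 2911 in WT, with 4 higher in Ahr-KO. Without Ahr-KO replicate 2, 2 of them were higher and 3 lower, with a median difference of -0.30. The 4 measured of 7 erythroid markers summed to 179.5 to 949 in Ahr-KO and 223 to 540.2 in WT. By mean log2 value, 2 were higher and 2 lower in Ahr-KO, with a median difference of 0.46 and a mean difference of -0.17. The 5 measured of 6 B lymphoid markers summed to 90.7 to 168 in Ahr-KO and 126 to 269 in WT. All 5 had lower mean log2 values in Ahr-KO, with a median of -0.44, and 2 of them were above the mark on no array. Without Ahr-KO replicate 2, 2 of these B lymphoid markers were higher and 3 lower. The 6 T and NK markers summed to 372 to 1082 in Ahr-KO and 197 to 597 in WT. Of these 6, 4 had higher and 2 lower mean log2 values in Ahr-KO, with a median of 0.32, and 2 were above the mark on no array. WT replicate 1 held the lowest value for 9 and the highest for 5 of the 37 repair genes, while WT replicate 2, with the highest granulocyte sum, held the lowest for 8 and the highest for 3. The part of the granulocyte signal in the repair values was not tested.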

How the data were processed

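In all, 7 arrays were analysed, 3 Ahr-KO and 4 WT. The authors deposited linear intensities, 1 for each array and probe set, made with Affymetrix Expression Console, per the submitters' processing notes; no source used here gives the summarization, background correction or normalization. Median intensities of 16.9 to 22.1 and 800 to 1621 values of 0 per array were found. Genes were named from the platform annotation: of 25335 annotated rows, 23521 had 1 symbol and 1814 several, and 15820 rows were unnamed here. Values were transformed as log2(intensity + 1) and fitted with limma 3.58.1 (R 4.3.3; lmFit, eBayes), genotype as the only term, with two-sided p-values adjusted by Benjamini-Hochberg over the annotated rows at a threshold of 0.05. Intervals and SEs are moderated. Deviations from the genotype means correlated little between same-numbered arrays (0.02, -0.06 and 0.01), as between differently numbered arrays (-0.08 to 0.12). This does not settle whether the replicate numbers pair the arrays. Every gene is described; array-by-array values are given for genes above the background mark on all arrays, with an unadjusted p under 0.05 or no overlap, and for Atm, Atr, Brca1 and Brca2. Other repair genes and p53 targets were named, at most 6 a list, by unadjusted p or non-overlap; the cell type markers named fall outside this rule and were chosen after their values were seen. Alternatives were leaving out each array, a replicate block, a pseudocount of 16, quantile normalization, median centring, a filter on dim probe sets, all rows, a trended prior, the mean of a gene's probe sets and the unmoderated test. The members, gene lists and tests were chosen with earlier results of these data known. Promoter sequences are from RefSeq, GRCm38.p6; no source used here gives the array's own build.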

Additional observations from a re-analysis of the deposited data

Results flagged for a closer look

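Among the WT groups of 4 arrays, 2 of the 37 repair genes (5.41%) had 1 array far from the other 3, and chance alone gives about 1 in 20. Chek2 stood at 0.03 on WT replicate 1, with a gap to the nearest array of 0.872 of the group's log2 range. Trp53bp1 stood at 4.10 on WT replicate 2, with a gap of 0.923 of the range. The Ahr-KO groups of 3 arrays were not tested in this way.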

How the results depend on the processing

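No repair gene passed the adjusted threshold under any of the 16 other settings of limma, where the lowest adjusted p among them ran from 0.872 to 0.996. The number at an unadjusted p under 0.05 was 1 to 3 on leaving out each array in turn, with 3.77 to 5.29% of all probe sets, and 1 with the unmoderated test, with 4.32%. The number without overlap was 1 to 4 on leaving out each array in turn, where the share over all probe sets was 9.27 to 14.5%. The number above the background mark on all arrays was 3 to 5 on leaving out each array in turn and 8 with the 90th percentile as the mark, a setting chosen after seeing the data. The filter on dim probe sets left 23 genes, of which 11 were higher in Ahr-KO, with a median of -0.01. The median difference was -0.21 to 0.39 on leaving out each array in turn. Whether the replicate numbers pair the arrays is not known. With the replicate block, in which WT replicate 4 adds nothing to the contrast, 25 genes were higher in Ahr-KO with a median of 0.36, and the differences of Mdm2 (0.087), Bard1 (0.19), Parp1 (0.15) and Ogg1 (0.16) turned sign. With a pseudocount of 16, Chek1 (-0.16), Xrcc1 (-0.058), Ogg1 (0.14), Xpa (0.13) and Ercc2 (-0.084) turned, as did Ogg1 (0.046) with median centring. Leaving out single arrays gave these lowest and highest differences for the genes that turned: Atm -0.11 and 1.42, Atr -0.29 and 1.63, Chek1 -0.82 and 1.12, Chek2 -0.88 and 1.61, Mdm2 -1.51 and 0.40, Trp53bp1 -0.99 and 1.31, Brca1 -0.65 and 1.93, Bard1 -1.62 and 0.19, Rad54l -1.32 and 0.98, Fancc -0.78 and 0.053, Fancg -2.39 and 0.10, Fancl -0.44 and 1.06, Prkdc -1.55 and 2.27, Lig4 -0.079 and 2.17, Xrcc1 -0.62 and 0.41, Parp1 -1.06 and 0.84, Ogg1 -1.22 and 1.12, Xpa -0.90 and 1.32, Xpc -0.60 and 0.28, Ercc1 -1.57 and 0.14, and Ercc2 -0.54 and 0.58. Beyond the smaller number of arrays or genes, the cause of these changes was not tested. Signal over background limits the genes with arrays below the mark, 34 of 37.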
